A study of Mus musculus with 4 samples.

Results

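The genes described here are 8 protein-coding genes of mouse chromosome 16, Plcxd2, Slc12a8, Hspbap1, Slc15a2, Popdc2, Lpp, Dexi and Tbc1d23. They lie within 25 Mb of Tfrc, the gene of transferrin receptor 1 (TfR1), and were selected on their read counts, which differed between the genotypes in these same libraries. They are 8 of the 238 tested genes in that stretch, of 12536 genes tested and 47729 genes listed in all. Because the contrast between genotypes chose them, their differences are given as a description and without a test.

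RNA was sequenced from regulatory T (Treg) cells of C57BL/6 mice in 4 libraries, 2 per genotype. The labels give the spleen as the tissue, whereas a legend of the study names lymph nodes as well. The WT mice were Tfrc +/+ Foxp3 YFP-Cre/+, and the mice labelled TfR1 cko were Tfrc fl/fl Foxp3 YFP-Cre/+, so both genotypes carried 1 allele in which Foxp3 drives yellow fluorescent protein (YFP) and Cre. Foxp3 is X-linked and the mice were female, so Cre is made in only some of the Treg cells of each mouse, and the study's methods describe a sort for CD4+CD25+YFP+ cells to obtain those that make it. The mice were young adults by the study's general statement on age, and the floxed line had been backcrossed to C57BL/6. A legend of the study describes these data as 2 biological replicates. Whether a library came from 1 mouse or from several is not given in the sources used here. The spread between libraries was not split into biological and technical parts. Mice of 1 genotype share both the Tfrc allele and the chromosome 16 sequence inherited with it, and in this design these cannot be told apart.

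Transferrin receptor 1 brings transferrin-bound iron into cells by endocytosis, and iron serves the mitochondrial respiratory chain and the dioxygenases that mark hypoxia-inducible factors for degradation. Treg cells restrain other lymphocytes and depend on the transcription factor Foxp3. Genes that lie close together on a chromosome are inherited together, because recombination between them is rare. The 8 genes have unrelated functions: they encode a phospholipase-like protein, a pair of membrane transporters, a cyclic-AMP-binding membrane protein, an adhesion scaffold, a vesicle-tethering protein, a JmjC-domain protein and a small protein of poorly defined function.

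The libraries held 10841939 to 17278448 counted reads. Tfrc, the targeted gene, was measured in CPM, its reads as parts of a library total set to the same size after TMM scaling. WT gave 50.8 and 54.1 CPM and TfR1 cko gave 56.1 and 48.3 CPM, so that the log2 fold change was -0.0065 (SE 0.16). The gene-level count of Tfrc therefore does not separate the genotypes, and within these libraries every direction below rests on the labels. By flow cytometry the study reports loss of TfR1 protein in Treg cells of Tfrc fl/fl Foxp3 YFP-Cre/y mice. It also reports less iron in sorted Treg cells of the female TfR1 cko genotype used here. Neither is a measurement of these libraries. A total over the whole gene cannot show whether the floxed exons were read. Foxp3 stood at 194 and 130 CPM in WT and at 122 and 114 CPM in TfR1 cko, and the summed level of 6 T-cell and Treg genes was 4120 and 3760 CPM in WT against 3210 and 2850 CPM in TfR1 cko. These sums did not overlap between genotypes, nor did the levels of Cd3e, Cd4, Foxp3, Il2ra and Ctla4 among the 6, whereas those of Ikzf2 did. Such a lack of overlap was found in 34.9% of all tested genes. The part of these genes in the differences described here was not tested. A list of 15 macrophage genes had summed levels of 1200 CPM (WT) and 97.8 CPM (WT) in replicates 1 and 2, and of 70.8 CPM and 3580 CPM in replicates 1 and 2 of TfR1 cko. All 15 were higher in WT replicate 1 and TfR1 cko replicate 2 than in the other library of the same genotype, none was at 0 in every library, and so 1 library of each genotype stood apart. Summed levels were 25.4 to 42.4 CPM for 5 B-cell genes, 13.8 to 15.3 CPM for 4 CD8 and NK genes and 16.9 to 277 CPM for the 4 erythroid genes found.

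Of the 8 genes, Plcxd2, Slc12a8, Hspbap1 and Popdc2 were lower in TfR1 cko and Slc15a2, Lpp, Dexi and Tbc1d23 were higher. Fitted folds ran from 1.55 for Lpp to 4.14 for Dexi among the higher genes, and from 1.62 for Hspbap1 to 4.75 for Popdc2 among the lower genes. The median log2 fold change of the 8 was -0.03, beside 0.0085 over all tested genes. The 6 genes on the side of Tfrc with higher coordinates comprised all 4 lower genes and 2 higher genes. Lpp and Dexi, on the other side, were both higher.

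**Figure D1:**
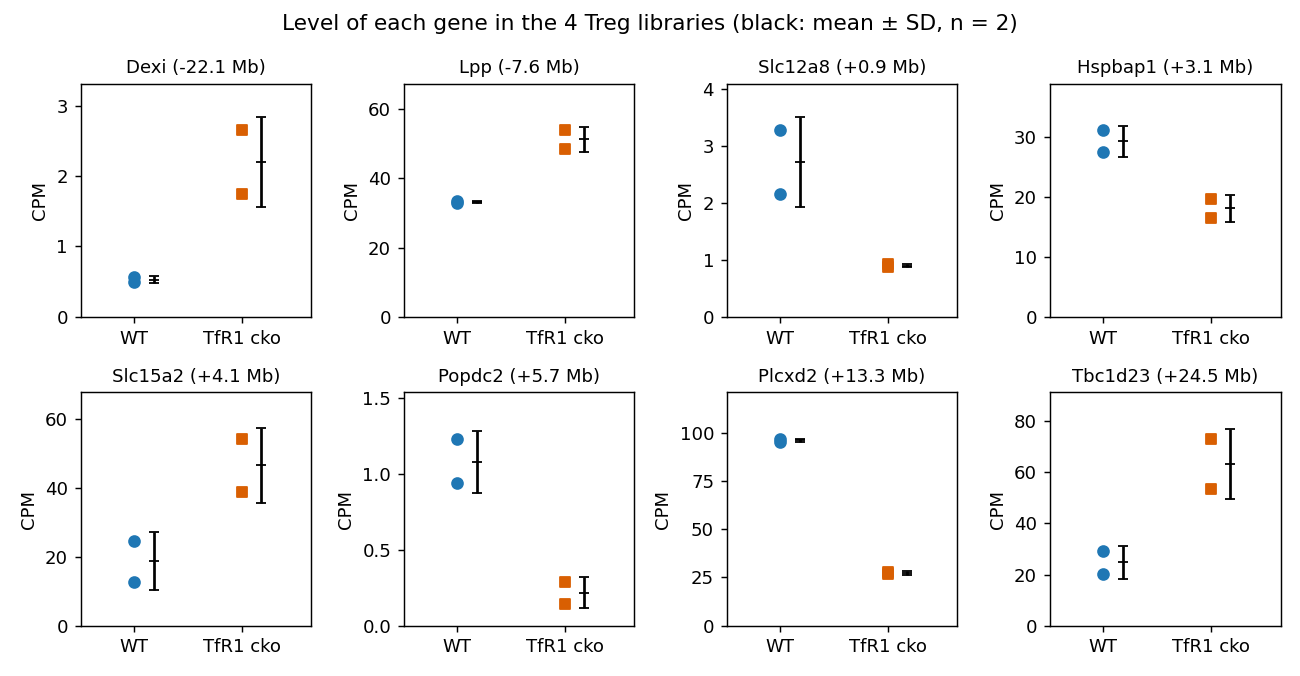
Level in CPM (linear axes from 0) of the 8 genes in the WT (circles) and TfR1 cko (squares) libraries, 1 panel per gene with its distance from Tfrc in Mb. Points are single libraries and black marks are mean ± SD (n = 2), and in each panel both TfR1 cko points lie on 1 side of both WT points.

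Plcxd2 (ENSMUSG00000087141) encodes a protein with the catalytic X domain of phosphoinositide-specific phospholipase C. The gene lies on the minus strand at chr16:45959261-46010413 of GRCm38, 13.3 Mb above Tfrc. Its level was 95.4 and 96.8 CPM in WT, from 1166 and 1033 reads, and 27.9 and 26.7 CPM in TfR1 cko, from 485 and 366 reads. The libraries of each genotype were close to each other, and the groups did not overlap. The WT mean of 96.1 ± 0.979 CPM (SD, n = 2) stood against 27.3 ± 0.87 CPM (SD, n = 2) in TfR1 cko. The level was 3.52-fold lower in TfR1 cko, or -1.81 on the log2 scale (SE 0.14). The 300 bases around its start, chr16:46010364-46010663 on the minus strand, are printed 5′ to 3′ because this gene had the highest WT level per kilobase of the 8. Capitals mark the core of the hypoxia response element, ACGTG or GCGTG on either strand.
Plcxd2: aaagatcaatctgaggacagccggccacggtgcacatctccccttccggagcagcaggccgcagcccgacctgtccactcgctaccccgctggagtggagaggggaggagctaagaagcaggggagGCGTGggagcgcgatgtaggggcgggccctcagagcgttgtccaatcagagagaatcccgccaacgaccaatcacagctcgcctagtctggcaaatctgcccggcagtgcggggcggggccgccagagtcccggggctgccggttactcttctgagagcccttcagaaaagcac

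Slc12a8 and Slc15a2 encode membrane transporters, and they differed in opposite directions. Slc12a8 (ENSMUSG00000035506), a member of the cation-chloride cotransporter family that has been described as a nicotinamide mononucleotide transporter, lies at chr16:33517328-33664138, 0.885 Mb from Tfrc and closest to it of the 8. Its level was low, with 3.27 and 2.16 CPM in WT, from 40 and 23 reads, and 0.922 and 0.876 CPM in TfR1 cko, from 16 and 12 reads. The fitted log2 fold change was -1.59 (SE 0.52), and the ratio of the summed counts, WT over TfR1 cko and scaled for depth, was 3.05. The lower WT library was still above both TfR1 cko libraries.

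Slc15a2 (ENSMUSG00000022899) encodes PEPT2, a proton-coupled transporter that takes up di- and tripeptides. It lies on the minus strand at chr16:36750161-36785158, 4.12 Mb from Tfrc. Its level was 12.8 and 24.6 CPM in WT and 54.1 and 38.8 CPM in TfR1 cko, means of 18.7 ± 8.34 and 46.5 ± 10.8 CPM (SD, n = 2 each). The log2 fold change was 1.32 (SE 0.37). The libraries of a genotype differed more in this gene than in Plcxd2, by 0.94 on the log2 scale in WT and 0.48 in TfR1 cko, and in both genotypes the library rich in macrophage genes was the lower. The groups did not overlap. Its promoter, chr16:36784913-36785212 on the minus strand, had the lowest GC content of the 8, and capitals again mark hypoxia response cores.
Slc15a2: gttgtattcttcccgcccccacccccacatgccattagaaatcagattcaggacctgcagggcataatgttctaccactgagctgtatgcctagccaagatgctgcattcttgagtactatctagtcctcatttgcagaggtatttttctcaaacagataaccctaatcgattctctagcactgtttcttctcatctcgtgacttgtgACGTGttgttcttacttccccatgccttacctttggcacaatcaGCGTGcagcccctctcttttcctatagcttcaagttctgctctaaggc

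Popdc2 (ENSMUSG00000022803) encodes a Popeye-domain membrane protein that binds cyclic AMP and is best known from heart and skeletal muscle. The gene lies at chr16:38362161-38378216, 5.73 Mb from Tfrc. It was near the limit of detection, with 15 and 10 reads in WT and 5 and 2 reads in TfR1 cko, or 1.23, 0.937, 0.288 and 0.146 CPM. The floor of 3 reads was 0.173 and 0.219 CPM in the TfR1 cko libraries, so replicate 2 of TfR1 cko lay below its floor. The summed counts of 25 and 7 reads gave a depth-scaled WT over TfR1 cko ratio of 4.85. Popdc2 passed the filter on low counts, 0.775 CPM in at least 2 libraries, through the WT libraries alone.

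Lpp and Tbc1d23 encode proteins of the cell periphery and of vesicle traffic, and both were higher in TfR1 cko. Lpp (ENSMUSG00000033306), a LIM-domain scaffold of the zyxin family found at focal adhesions, spans 599 kb at chr16:24393350-24992578, at -7.62 Mb from Tfrc, on the side of lower coordinates. Its level was 33.3 and 32.8 CPM in WT and 53.8 and 48.5 CPM in TfR1 cko, a log2 fold change of 0.63 (SE 0.16). The difference was the smallest of the 4 higher genes, and the gap between the groups exceeded the spread within either: the means were 33.1 ± 0.359 and 51.2 ± 3.69 CPM (SD, n = 2 each).

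Tbc1d23 (ENSMUSG00000022749) encodes a protein that tethers endosome-derived vesicles at the trans-Golgi network together with golgins and the WASH complex. The gene lies on the minus strand at chr16:57168862-57231528, 24.5 Mb from Tfrc and farthest from it of the 8. Its level was 20.3 and 29.3 CPM in WT and 53.6 and 73.0 CPM in TfR1 cko, from 248, 313, 930 and 1000 reads. The higher WT library and the lower TfR1 cko library were still 0.87 apart on the log2 scale. The means were 24.8 ± 6.39 and 63.3 ± 13.7 CPM (SD, n = 2 each) and the log2 fold change was 1.35 (SE 0.27). Its promoter, chr16:57231417-57231716 on the minus strand, is shown because this gene had the highest TfR1 cko level per kilobase of the 8.
Tbc1d23: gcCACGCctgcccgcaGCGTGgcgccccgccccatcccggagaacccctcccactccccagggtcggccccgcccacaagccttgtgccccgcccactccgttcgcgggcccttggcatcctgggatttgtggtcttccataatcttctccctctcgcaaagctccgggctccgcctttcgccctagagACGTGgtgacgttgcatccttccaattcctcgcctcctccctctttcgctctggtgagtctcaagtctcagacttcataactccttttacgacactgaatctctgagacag

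Hspbap1 (ENSMUSG00000022849) encodes a JmjC-domain protein that binds the small heat shock protein Hsp27, from a protein family of iron- and oxygen-dependent dioxygenases. It lies at chr16:35769726-35828462, 3.14 Mb from Tfrc. Its level was 31.1 and 27.5 CPM in WT and 19.7 and 16.5 CPM in TfR1 cko, a log2 fold change of -0.70 (SE 0.22). The groups did not overlap, at 29.3 ± 2.57 and 18.1 ± 2.23 CPM (SD, n = 2 each). The closest libraries of opposite genotype, WT replicate 2 and TfR1 cko replicate 1, differed by 0.48 on the log2 scale, the smallest such gap of the 8 genes. Its promoter, chr16:35770136-35770435 on the plus strand, is set on a start inside that gene body and lies wholly within it. This window held the most hypoxia response cores of the 8, and those on opposite strands overlap where the capitals spell CACGTG.
Hspbap1: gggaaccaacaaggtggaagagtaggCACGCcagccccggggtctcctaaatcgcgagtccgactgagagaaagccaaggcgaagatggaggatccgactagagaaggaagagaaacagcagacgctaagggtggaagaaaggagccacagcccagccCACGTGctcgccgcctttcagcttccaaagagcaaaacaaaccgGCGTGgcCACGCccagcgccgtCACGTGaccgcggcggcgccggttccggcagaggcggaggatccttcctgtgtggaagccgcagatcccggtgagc

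Dexi (ENSMUSG00000038055) encodes a small protein of poorly defined function beside Clec16a and Ciita, a region known from genetic studies of autoimmunity. The gene lies on the minus strand at chr16:10530207-10543054, at -22.1 Mb from Tfrc. It had 6 and 6 reads in WT and 46 and 24 reads in TfR1 cko, or 0.491, 0.562, 2.65 and 1.75 CPM. The summed counts of 12 and 70 reads gave a depth-scaled TfR1 cko over WT ratio of 4.3, and the fitted log2 fold change was 2.05 (SE 0.59). Dexi passed the filter through the TfR1 cko libraries alone. Its 3′ end overlaps that of Ciita, the class II transactivator, by 858 bases, and Ciita had 15 and 2 reads in WT and 23 and 27 reads in TfR1 cko. Whether the counting used strand is not stated, so reads in the shared bases cannot be assigned to either gene with certainty.

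Levels between genes were compared per kilobase of exon in GENCODE vM1. On that scale the WT means ran from 0.379 CPM per kb for Dexi and 0.459 CPM per kb for Popdc2 to 6.38 for Hspbap1, 6.8 for Tbc1d23 and 13.5 for Plcxd2, beside 8.47 for Tfrc. In TfR1 cko the order changed: Tbc1d23 was highest at 17.4 CPM per kb, followed by Slc15a2 at 6.31, Hspbap1 at 3.94, Plcxd2 at 3.83 and Lpp at 3.2. Hspbap1 and Plcxd2, neighbours in that order, stood within the spread of the Hspbap1 libraries. Plcxd2 thus went from the highest of the 8 in WT to the fourth in TfR1 cko, and the 3 low genes Slc12a8, Popdc2 and Dexi stayed at or under 1.58 CPM per kb in both genotypes.

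The selection fixes some counts, and these are given only with their background. Genes were called where edgeR's quasi-likelihood test gave an unadjusted p-value under 0.05 and the log2 fold change was 0.5 or more in either direction, the form of threshold used in the study. All 8 passed, 4 higher and 4 lower, and 511 of all 12536 tested genes did (4.08%), 200 higher (1.60%) and 311 lower (2.48%). In all 8 both TfR1 cko libraries lay on 1 side of both WT libraries, which was also so for 34.9% of all tested genes. After adjustment over all genes, edgeR called none of the 8 and 0% of all genes. DESeq2 called Plcxd2 and Tbc1d23, beside 0.337% of the 11563 genes to which it gave an adjusted value. Nothing is read from these shares about the 8 genes, since the same contrast chose them. Without WT replicate 1 the lower calls over all genes went from 311 to 140. The number of the 8 that passed the threshold was 4 without WT replicate 1, 5 without WT replicate 2, 2 without TfR1 cko replicate 1 and 5 without TfR1 cko replicate 2. Of the 8, Popdc2 lay closest to the threshold by its p-value, 0.0367 in edgeR, and Lpp by its fold change, 0.63. Other genes of the stretch lay closer inside, 4930455C21Rik with an edgeR p-value of 0.048 and Filip1l with a log2 fold change of 0.53. Just outside lay Serpind1 (edgeR p-value 0.0513, log2 fold change -2.19) and Dtx3l (log2 fold change -0.49).

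Each library was also set against the others, because 1 library of each genotype stood apart. For the 8 genes the log2 difference between replicates was at most 0.94 in absolute value within WT and at most 0.57 within TfR1 cko. Comparing like with like, TfR1 cko replicate 2 against WT replicate 1 (the macrophage-rich libraries) and TfR1 cko replicate 1 against WT replicate 2, the choice of genes whose groups do not overlap fixes the sign of both ratios, and the sizes are given as a description. Plcxd2 gave -1.83 and -1.79, Hspbap1 -0.91 and -0.48, Slc15a2 1.59 and 1.14, Lpp 0.54 and 0.71, and Tbc1d23 1.84 and 0.87. The macrophage genes had medians of 4.61 and 6.06 within the genotypes and of 1.7 and 0.18 in the like-with-like ratios. The 5 proliferation genes listed followed the same libraries, with summed levels of 582 and 498 CPM in the macrophage-rich libraries and 149 and 150 CPM in the others. Fewer cells of a type and less RNA per cell cannot be told apart in such bulk libraries.

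**Figure D2:**
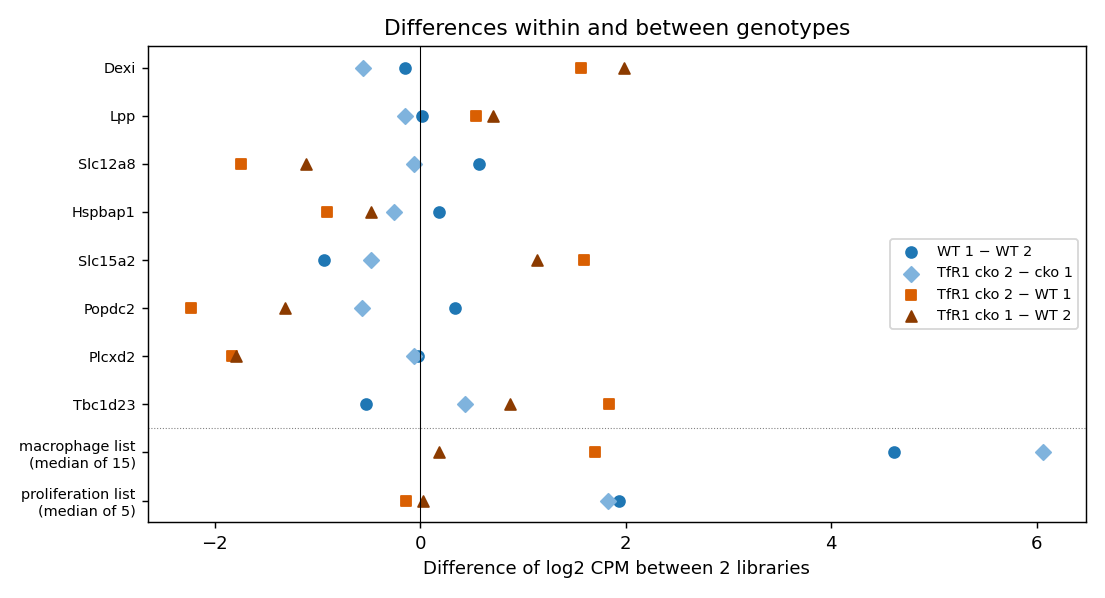
Log2 differences (log2 CPM, prior count 2) between single libraries for the 8 genes, within each genotype and between libraries of opposite genotype paired by macrophage content, with the medians of the macrophage and proliferation lists. For the 8 genes within-genotype differences reach 0.94 in absolute value, and the sign of the between-genotype differences is fixed by how the genes were chosen.

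The 8 genes were then placed among every tested gene of the stretch. Within 25 Mb of Tfrc, 17 of 238 tested genes were called (7.14%), 7 higher and 10 lower, and the median log2 fold change was 0.04 with quartiles of -0.17 and 0.25. The share was 4.1% on all other chromosomes and 6.84% on chromosome 16 as a whole, 24 of 351 genes, which was the highest of 20 chromosomes, the others lying between 2.91% and 5.86%. The rest of chromosome 16, beyond 25 Mb, gave 7 of 113 genes (6.19%). The 8 genes were drawn from the called ones, and the remaining genes of the stretch gave 9 of 230 (3.91%), a share that this choice lowers. These shares carry no test, and they describe these 4 libraries.

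**Figure D3:**
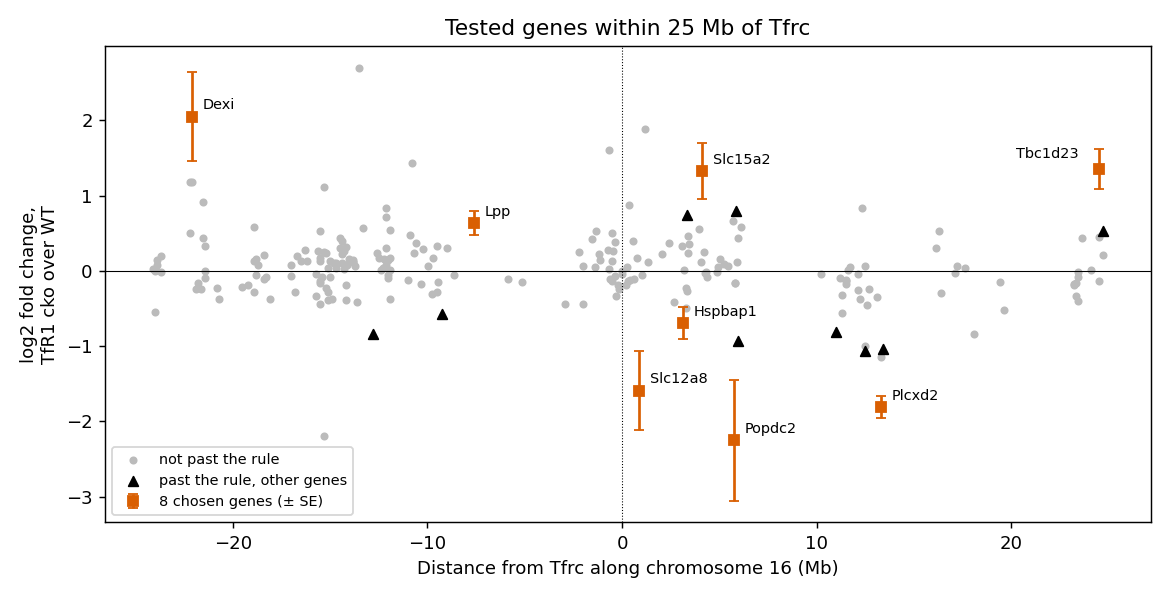
Log2 fold change (TfR1 cko minus WT) of each tested gene within 25 Mb against the distance of its gene body from Tfrc in Mb, with the 8 genes named (squares ± SE), other called genes as triangles and the rest in grey; past the rule means called as defined in the text. The 8 genes lie from -22.1 to 24.5 Mb among 238 tested genes whose median log2 fold change is 0.04.

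The called genes were unevenly spread along the stretch. At higher coordinates than Tfrc 13 of 93 genes were called, against 4 of 144 at lower coordinates, beside 4.08% of all tested genes. Of the 13, 6 belong to the 8 genes, as do 2 of the 4, and these were chosen for their difference. In steps of 5 Mb the share was 11.4% from 0 to 5 Mb (4 of 35 genes, with Slc12a8, Hspbap1 and Slc15a2 among the 4), 3 of 12 genes from 5 to 10 Mb (with Popdc2) and 17.4% from 10 to 15 Mb (4 of 23, with Plcxd2). It was 14.3% from 20 to 25 Mb (2 of 14, with Tbc1d23) and 16.7% from -10 to -5 Mb (2 of 12, with Lpp). From -25 to -20 Mb it was 4.35% (1 of 23, Dexi) and from -15 to -10 Mb 2.04% (1 of 49), both near or under the 4.08% of all tested genes. No gene was called from 15 to 20 Mb (0 of 9), from -5 to 0 Mb (0 of 22) or from -20 to -15 Mb (0 of 38). At an adjusted value edgeR called 0% of all tested genes and DESeq2 0.337%, so the lack of such calls in these steps adds nothing. Steps with under 20 genes change by several percentage points with a single gene. From 10 to 15 Mb the median log2 fold change was -0.25 and all 4 called genes were lower.

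**Figure D4:**
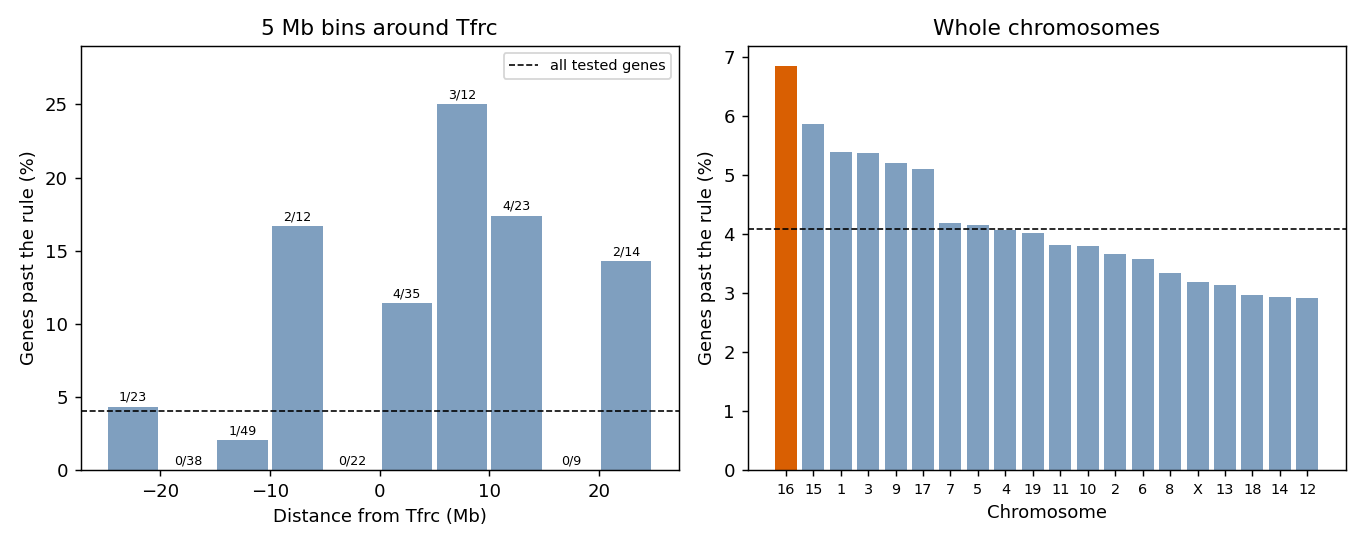
Share of tested genes past the rule, that is called (percent, bars from 0), in 5 Mb steps of distance from Tfrc with called and tested genes above each bar (left) and by chromosome (right). The dashed line is the 4.08% of all tested genes, steps hold 9 to 49 genes, and chromosome 16 is highest at 6.84%.

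The other 9 called genes of the stretch comprised 3 higher and 6 lower genes. Cd96 and Tigit, receptors of T and NK cells that bind nectin family ligands, were both lower. Cd96 stood at 471 and 541 CPM in WT and 252 and 239 CPM in TfR1 cko, a log2 fold change of -1.04 (SE 0.15). Its body lies 25.2 kb above that of Plcxd2 and is transcribed from the same strand. Slc35a5, a putative nucleotide-sugar transporter, had a log2 fold change of -1.07 (SE 0.22) and lies between Tigit and Plcxd2, at 12.5 Mb. Cd96 (adjusted p = 1.49e-05) and Slc35a5 (adjusted p = 0.0367) were also called by DESeq2, which with Plcxd2 and Tbc1d23 made 4 such genes in the stretch.

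Arhgap31 had a log2 fold change of -0.93 at 5.97 Mb, and Tigit had -0.82. B3gnt5 (-0.84) and St6gal1 (-0.57), both glycosyltransferases, lay below Tfrc. The higher genes were Gm15564 (0.75), 4930455C21Rik, which RefSeq names Timmdc1, an assembly factor of respiratory complex I (0.79), and Filip1l (0.53), whose body begins 24.7 Mb from Tfrc, close to Tbc1d23. The nearest called gene beyond 25 Mb was Gpr15, a homing receptor of colonic T cells, at 26.1 Mb, with 11.0 and 15.8 CPM in WT and 4.73 and 4.38 CPM in TfR1 cko. These genes were called on the same contrast and libraries as the 8.

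The genes next to each of the 8 were examined on both sides, 16 neighbours in all. Only Cd96 was called (1 of 16, beside 4.08% of all tested genes), 8 neighbours had a log2 fold change above 0 and 8 below, and their median was -0.02. Dirc2, on the opposite strand with its body 0.356 kb from that of Hspbap1, had a log2 fold change of 0.33. That was opposite in sign to Hspbap1, and Parp14, 3.43 kb on the other side, had 0.0071. Nit2, 1.53 kb from Tbc1d23, stood at 25.6 and 23.4 CPM in WT and 22.7 and 22.1 CPM in TfR1 cko, a log2 fold change of -0.13 beside 1.35 for Tbc1d23. Clec16a, 2.25 kb from Dexi, had -0.24 beside 2.05 for Dexi.

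Zfp148 and Heg1, on either side of Slc12a8, gave 0.16 and -0.05. Ildr1 and Iqcb1, around Slc15a2, gave 0.12 and 0.26, and Bcl6 and Il1rap, the nearest tested genes around Lpp, gave -0.06 and -0.11. Around Popdc2, Cox17, a copper chaperone of cytochrome c oxidase, gave 0.67 and Adprh gave -0.16. Beyond Tbc1d23 lay 2610528E23Rik with 0.22. Gm15638, which overlaps Plcxd2, gave -1.14 and Ciita, which overlaps Dexi, gave 1.18 (SE 0.91), and neither was called. Each of the 16 had a smaller fitted change in absolute value than the gene it adjoins, which had been chosen for its difference.

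Overlapping transcripts were checked because a count per gene can hold reads of another. Plcxd2 shares 12110 bases with the lncRNA Gm15638, which had 12, 15, 12 and 5 reads in WT replicates 1 and 2 and TfR1 cko replicates 1 and 2, few beside the 366 to 1166 reads of Plcxd2. Tbc1d23 shares 7327 bases with the lncRNA Gm16892, which was not matched to a row of the table. Slc15a2 contains the pseudogene Gm8425, with 0 reads in every library. Lpp overlaps 6 small or noncoding genes, of which only Mir28a was matched to counts, with 0, 0, 0 and 1 reads. Reads of the others could not be checked, among them Morf4l1-ps1, which shares 5159 bases, and Gm52245, which shares 8790. No overlapping gene of RefSeq was found for Slc12a8, Hspbap1 or Popdc2.

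Relatives and partners of the 8 were read from lists by gene family, among them Riox2 on chromosome 16, 26.8 Mb from Tfrc. Of 33 tested relatives 1 was called, a share read beside the 4.08% of all tested genes. It was Plcb4, a phospholipase C beta isoform at 18.6 and 10.6 CPM in WT and 7.38 and 7.88 CPM in TfR1 cko (log2 fold change -0.94, SE 0.36). In all, 17 of the 33 had a fitted change above 0 and 16 below. Among the other phospholipase C genes, Plcxd1, the relative of Plcxd2, had -0.17, and Plcg2 had the largest fitted change, 1.35 (SE 1.29), with values of 3.27, 0.75, 0.692 and 9.71 CPM that followed the macrophage-rich libraries. The 6 tested genes of that list had a median of 0.07.

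No transporter relative was among the called genes. Slc12a7, a potassium-chloride cotransporter, had the largest fitted change of 5 tested SLC12 genes at -0.37 (SE 0.13), with 181 and 191 CPM in WT and 142 and 147 CPM in TfR1 cko, and the median was -0.17. Of 2 tested SLC15 genes, Slc15a4, a lysosomal histidine and peptide transporter, had -0.05, and Slc15a3 had 0.74 (SE 1.06), with 2.78 and 5.77 CPM in the macrophage-rich libraries and 1.03 and 0.692 CPM in the others. The 8 tested JmjC relatives of Hspbap1 had a median of -0.04. Riox1 had the largest of their fitted changes, 0.35 (SE 0.34), and Hif1an, the oxygen-dependent asparaginyl hydroxylase of hypoxia-inducible factors, had -0.34 (SE 0.19).

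Relatives of the remaining genes varied as little. Of 3 tested zyxin-family genes, Zyx had the largest fitted change, 0.30 (SE 0.21), and the median was 0.0097. The 9 tested partners of Tbc1d23, which include its binding partner Fam91a1 and the WASH complex subunits, had a median of 0.03. Fam91a1 had the largest change among them at 0.33 (SE 0.21), from 17.0 and 17.4 CPM in WT to 22.0 and 21.3 CPM in TfR1 cko, and was not called. The other Popeye genes were not tested: Bves had 1, 0, 0 and 0 reads and Popdc3 0, 1, 1 and 2 reads, so Popdc2 was the Popeye gene with the most reads in these cells, at 2 to 15 reads a library.

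For each of the 8, the gene whose profile over the 4 libraries was most alike was found by the Euclidean distance between centred log2 CPM values. Fgl2, a secreted fibrinogen-like effector of Treg cells, was nearest to Plcxd2 (distance 0.112), at 23.9 and 23.5 CPM in WT and 7.38 and 7.01 CPM in TfR1 cko. Ahr, the aryl hydrocarbon receptor, was nearest to Slc12a8 (0.18), at 12.4 and 9.37 CPM in WT and 3.75 and 3.43 CPM in TfR1 cko. Crtc1, a CREB coactivator, was nearest to Hspbap1 (0.0337), Tmem160 to Slc15a2 (0.137), Tspan2 to Popdc2 (0.153) and Gm14125 to Tbc1d23 (0.158). Lpp was nearest to a U2 RNA gene (0.023) and Dexi to ENSMUSG00000108314 (0.143), a gene without a symbol here. With 4 libraries many genes share such a profile, and the distance is a description.

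Sequence around a start of each of the 8 genes was set beside all mouse promoters, since the study follows the hypoxia-inducible factor pathway. RefSeq promoters of 300 bases in GRCm38.p6, 250 before and 50 after the start, were found for all 8. For Hspbap1, Slc15a2, Popdc2 and Tbc1d23 the start used lies inside the gene body given above. The Hspbap1 window lies wholly within that body, so it is not sequence upstream of the gene as positioned here. The hypoxia response core, ACGTG or GCGTG on either strand, was present in 6 of 8, and in 43.8% of 32851 promoters of the same length. Hspbap1 had 7 matches, Tbc1d23 3, Slc15a2 and Lpp 2 each, and Plcxd2 and Dexi 1 each, 124 and 123 bases before the start. Slc12a8 and Popdc2 had none. Lower genes (Plcxd2, Hspbap1) and higher genes (Slc15a2, Lpp, Dexi, Tbc1d23) thus both held the core, and genes with and without it were found among the lower ones.

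Other short motifs were rare in these windows. The E-box CACGTG, which contains the core on both strands, was present in Hspbap1 alone (7.15% of all promoters). The forkhead core TGTTTA was in 0 of 8 (13.4% of all promoters), the Maf half-site TGCTGA in Slc12a8 alone (19.5%) and TATAAA in 0 of 8 (13.6%), each searched on both strands. GC content ran from 46.3% in Slc15a2 to 64.7% in Lpp, beside a median of 52.7% over all promoters. A match is a string of letters and was not tested as a binding site, and a missing match says only that these letters are not in these 300 bases.

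The fitted changes were recomputed under 11 alternative settings of scaling, filter, test, block and omitted library. The sign of each of the 8 genes was the same in every setting in which it could be fitted, 11 for 6 genes and 10 for Popdc2 and Dexi, which have too few reads for a minimum of 10 counts in every library. Plcxd2 and Tbc1d23 were past the threshold in all 11, Slc15a2 in 10, Lpp in 8, and Slc12a8 and Hspbap1 in 6 each. Dexi was past it in 8 of 10 and Popdc2 in 3 of 10. The fitted change of Plcxd2 lay between -1.85 and -1.78 and that of Lpp between 0.55 and 0.70. Slc15a2 varied from 0.93 to 1.86, Dexi from 1.72 to 2.31 and Popdc2 from -2.81 to -1.88. Since the direction of the 8 was fixed by the choice of genes whose groups do not overlap, an unvarying sign is no sign of stability.

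**Figure D5:**
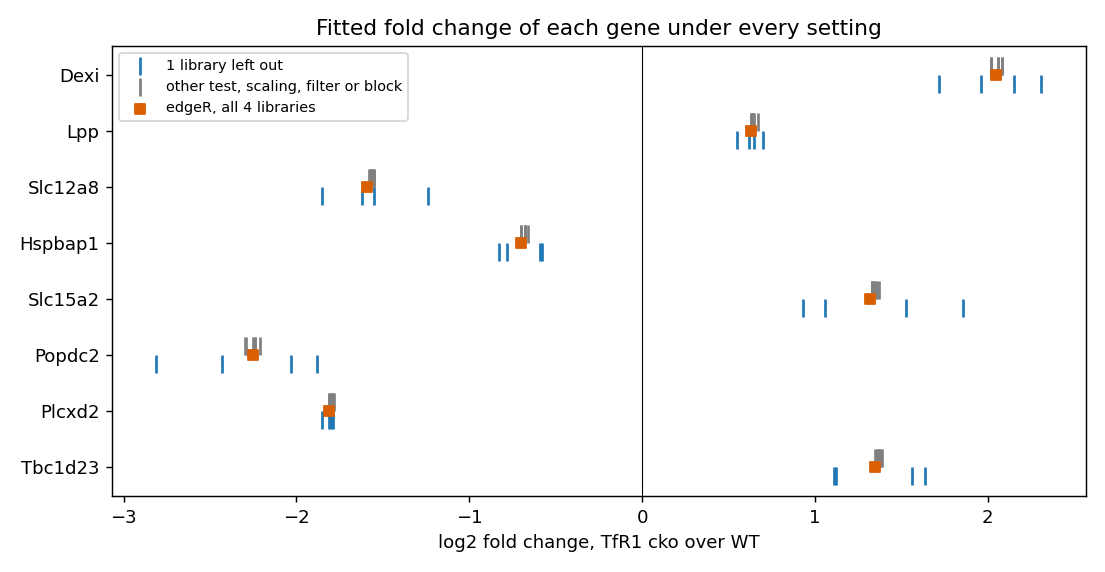
Fitted log2 fold change (TfR1 cko minus WT) of the 8 genes in the reported fit (squares) and up to 11 alternative settings (ticks, with fits that leave out 1 library in blue). Plcxd2 spans -1.85 to -1.78 and Slc15a2 spans 0.93 to 1.86.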

How the data were processed

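The authors deposited whole-number read counts per Ensembl gene, not normalized, for 4 libraries (NEBNext Single Cell/Low Input kit). The submitters' processing notes name mm10, Trim Galore 0.6.7, STAR 2.7.9a and featureCounts, whereas the methods name mm9. The sources used here do not state the annotation release, or how strand and multimapped reads were handled. Positions are those of RefSeq GRCm38.p6, matched by symbol. Distances to Tfrc run between the nearest ends of the gene bodies.

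From these, edgeR 4.0.16 in R 4.3.3 (filterByExpr, TMM scaling, quasi-likelihood F-test on genotype alone) gave p-values, adjusted over all genes by the Benjamini-Hochberg method. An SE was derived from each log2 fold change and its F statistic, as their absolute ratio with the root of F, and log2 CPM has a prior count of 2. DESeq2 1.42.0, other scaling, filters and blocks, and omission of each library were alternatives. Both fits were also run on simulated counts of independent libraries with known changes. Those counts lacked the shared macrophage and proliferation pattern of the real libraries, so they do not show how the fits perform here. The 8 genes, the lists and the rule for named genes (the 8, Tfrc, Foxp3, nearest tested neighbours, other called genes within 25 Mb and the next beyond, the most alike gene and the largest change per family list) were chosen with earlier results of these data known. Hif1an, Slc15a4, Plcxd1, Bves, Popdc3, Serpind1 and Dtx3l were named after their values were seen. Symbols were found for 32799 of 47729 rows, and positions for 11327 of the 12536 tested genes.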

Additional observations from a re-analysis of the deposited data

How the results depend on the processing

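Precision was limited by 2 libraries per genotype (biological coefficient of variation 0.323 in edgeR). Over all tested genes, 511 were called, 200 higher and 311 lower. Without a filter these were 1095 and 650 higher, and requiring a log2 fold change of 1 they were 195, 91 higher and 104 lower. A block for the replicate number gave 211, with 70 higher and 141 lower. The same-numbered libraries deviated in opposite directions (correlation -0.609), so the numbers do not pair the libraries. A crossed replicate block, added after the data were seen, gave 1115 calls, 596 higher and 519 lower, of which 360 at an adjusted p under 0.05 and 10 of these within 25 Mb. Leaving out 1 library gave 408 to 595 calls, 151 to 268 higher and 140 (without WT replicate 1) to 372 lower, and the higher share of the calls was 65.7% without WT replicate 1, beside 39.1%. At an adjusted p under 0.05 edgeR called 0 (511 at an unadjusted p under 0.05 with the minimum change), DESeq2 39 and the unfiltered edgeR fit 262. Within 25 Mb of Tfrc these were 0, 4 and 9. The 17 calls there became 25 without a filter, 24 with the crossed block, 9 with the replicate block, 8 when a log2 fold change of 1 was required and 9 within 10 Mb, and leaving out 1 library gave 15 to 19. Of the 8 genes, 4 were called with the block, 6 with DESeq2, 6 with a minimum of 10 counts and 7 without a filter. The cause of these changes was not tested. The median within 25 Mb stayed within -0.0083 and 0.09.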
